A study of Mus musculus with 4 samples.

Results

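The unfolded protein response is the programme by which a cell raises the folding capacity of its endoplasmic reticulum. Its course was followed across 4 arrays of mouse epididymal fat in 10 genes, Hspa5, Hsp90b1, Sdf2l1, Creld2, Pdia4, Dnajb9, Herpud1, Xbp1, Atf4 and Ddit3. They were taken by name, and each was read through its brightest annotated probe set, by mean. Of these 10 genes, 9 had such a probe set, among 19505 genes with a symbol in all. Pdia4, a disulfide isomerase of the endoplasmic reticulum, is not analysed here for its level, because no probe set carries its symbol in the annotation used.

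The tissue was the fat beside the epididymis of male mice, and total RNA was hybridised to Clariom S Mouse arrays. Veh-Sham mice received DMSO and sham surgery, and Veh-SA mice received DMSO and synergist ablation, an operation that overloads a muscle mechanically. GW-Sham and GW-SA mice received GW4869, an inhibitor of extracellular vesicle release, with the same surgeries. Each group is 1 array. The sources used here do not give the strain, age, dose, time after surgery or number of mice behind an array. There is thus no replicate error and no test, and every difference below compares arrays. In bulk tissue, fewer cells of a type and less RNA per cell cannot be told apart.

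3 sensors span the membrane of the endoplasmic reticulum. IRE1 splices the Xbp1 messenger, ATF6 is cut to release a transcription factor, and PERK slows translation while favouring that of Atf4. ATF6 and XBP1 drive chaperone and degradation genes through short promoter elements, whereas ATF4 drives amino acid genes and Ddit3. Fat cells use this machinery to fold the adipokines and lipases that they secrete. Gland-like tissue, such as the epithelium of the male tract, secretes heavily as well.

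Promoter sequences are shown for the 4 genes in which the endoplasmic reticulum stress element was found. The element is CCAAT followed after 9 bases by CCACG, and its second form is ATTGG followed after 1 base by CCACG. Both strands were searched in RefSeq windows of 300 bases, which run to 50 bases past the annotated start (GRCm38.p6). All 10 genes had a window. The exact element occurred in those of Hspa5, Hsp90b1 and Creld2, and in 0.119% of all 32851 windows, and its second form occurred in Herpud1 and in 0.0365% of them. The 250 bases before the start follow, 5′ to 3′ on the strand of the gene. Capitals mark the fixed bases of the element, read on the opposite strand as CGTGG and ATTGG, and in Herpud1 also the core TTGCATCA of the composite site of C/EBP and ATF factors.
Hspa5, chr2:34771840-34772089, plus strand: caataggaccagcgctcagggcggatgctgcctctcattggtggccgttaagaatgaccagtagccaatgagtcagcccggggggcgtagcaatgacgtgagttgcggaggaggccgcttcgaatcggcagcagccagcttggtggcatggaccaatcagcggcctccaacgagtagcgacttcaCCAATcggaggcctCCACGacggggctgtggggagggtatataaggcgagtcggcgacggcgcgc
Hsp90b1, chr10:86705445-86705694, minus strand: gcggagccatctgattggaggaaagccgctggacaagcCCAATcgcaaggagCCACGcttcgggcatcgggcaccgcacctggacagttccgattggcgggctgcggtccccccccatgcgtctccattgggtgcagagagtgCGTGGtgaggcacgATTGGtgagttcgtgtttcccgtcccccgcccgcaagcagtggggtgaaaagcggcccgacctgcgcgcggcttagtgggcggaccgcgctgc
Creld2, chr15:88819396-88819645, plus strand: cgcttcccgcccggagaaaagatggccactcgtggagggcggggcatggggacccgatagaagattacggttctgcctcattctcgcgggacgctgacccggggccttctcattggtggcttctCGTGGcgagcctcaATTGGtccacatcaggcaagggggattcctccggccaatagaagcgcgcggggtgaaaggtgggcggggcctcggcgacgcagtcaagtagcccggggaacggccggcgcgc
Herpud1, chr8:94386179-94386428, plus strand: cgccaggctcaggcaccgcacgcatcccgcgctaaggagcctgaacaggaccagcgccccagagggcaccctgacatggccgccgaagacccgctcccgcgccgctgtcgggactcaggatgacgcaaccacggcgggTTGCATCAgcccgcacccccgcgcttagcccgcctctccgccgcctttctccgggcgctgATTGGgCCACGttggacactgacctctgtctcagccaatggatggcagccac

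Hsp90b1 held the element 2 times, once on each strand. TTGCATCA was present in 0.895% of all windows and in Herpud1 alone among the 10 genes. When 1 mismatch was allowed in the CCACG part, 6 of the 10 windows matched, against 0.998% of all windows. The windows added held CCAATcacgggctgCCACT in Pdia4, CCAATggatggcagCCACA in Herpud1 and CCAATcagaaagcgGCACG in Ddit3, the capitals marking the parts compared. Hsp90b1, already matched, gained CCAATcggaactgtCCAGG on the opposite strand. TGACGTGG, a core bound by XBP1 and ATF6, matched none of the 10 windows and 0.676% of all, and TGACGTCA, the cAMP response element, none and 1.79%. The windows of Sdf2l1, Dnajb9, Xbp1 and Atf4 held no form of the stress element, which says only that these letters are not in this stretch. CCAAT alone was in 9 of the 10 windows and in 37.4% of all, and CCACG alone in 8 and 32.8%.

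Hspa5 and its partners in folding stood lowest on the vehicle overload array, and most of the 9 genes stood highest on the GW4869 overload array. Veh-SA was the lowest array for 6 of the 9 genes, and for 18.9% of the 11703 genes above a floor of 4.67, set so that 40 percent of gene means lie below it. GW-SA was the highest array for 6 of the 9, and for 26.7% of those genes. No member was highest on Veh-SA or lowest on GW-SA, against 30.1% and 22.3% of those genes. With arrays centred on all genes Xbp1 became highest on Veh-SA. GW-SA was the highest array for 6, 8 and 7 of the 9 under centring on all genes, centring on adipocyte genes and quantile normalization. The share of all genes highest on GW-SA was not counted under these scalings. Centring on adipocyte genes raised the all-gene median of GW-SA minus Veh-SA by 0.48, so the count of 8 partly follows the whole array. All values are deposited log2 units, so a difference of 1 is a doubling on that scale, and levels of different genes are not set against each other.

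Hspa5 encodes BiP, the main chaperone of the endoplasmic reticulum, which also holds the sensors inactive. It stood at 17.52 on Veh-Sham, 16.16 on Veh-SA, 17.12 on GW-Sham and 18.55 on GW-SA. The GW4869 overload array was the highest and the vehicle overload array the lowest, with both sham arrays between. The difference of overload from sham was -1.36 under vehicle, 2.56-fold lower, and 1.43 under GW4869, 2.70-fold higher.

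Hsp90b1 encodes GRP94, the HSP90 of the endoplasmic reticulum. Its values were 16.11, 15.38, 15.79 and 16.28 on Veh-Sham, Veh-SA, GW-Sham and GW-SA. The order of the arrays was that of Hspa5 and the range was narrower, 0.90 against 2.39. Overload under vehicle came to -0.73 and overload under GW4869 to 0.49.

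Sdf2l1 encodes a partner that keeps Hsp40 cochaperones of BiP active. Its values were 7.23 on Veh-Sham, 5.65 on Veh-SA, 7.76 on GW-Sham and 7.49 on GW-SA. The vehicle overload value lies below the 95th percentile of the antigenomic background probes, which was 6.34 to 6.40 over the arrays. The vehicle difference of -1.58 became -0.88 with that background limit in place of the lower reading. This was the single reading of 36 below that limit. Under GW4869 the overload difference was -0.27, and it was 0.20 with arrays centred on adipocyte genes.

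Creld2 encodes a secreted protein with disulfide isomerase activity that is strongly induced by this stress. It read 9.70 on Veh-Sham, 8.35 on Veh-SA, 8.75 on GW-Sham and 9.25 on GW-SA. Here the vehicle sham array was the highest, and the difference was -1.35 for overload under vehicle and 0.50 under GW4869. Dnajb9 encodes ERdj4, an Hsp40 partner of BiP that restrains IRE1. It read 12.80, 12.48, 13.15 and 13.40 in the same order, which gave -0.32 under vehicle and 0.24 under GW4869. The vehicle value turned to 0.16 with arrays centred on all genes.

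Herpud1 encodes a membrane protein of the degradation complex that removes misfolded proteins. It stood at 13.41 on Veh-Sham, 12.57 on Veh-SA, 12.86 on GW-Sham and 13.50 on GW-SA. Overload and sham lay in opposite order under the 2 treatments, at -0.84 under vehicle and 0.64 under GW4869. Hspa5 and Herpud1 were the 2 of 9 genes at least 1.5-fold lower under vehicle and at least 1.5-fold higher under GW4869, as were 4.20% of genes above the floor. With arrays centred on all genes Herpud1 came to -0.37 and 0.54, under 1.5-fold both ways, and Hspa5 passed both ways under all 4 scalings. Ignoring size, 6 of the 9 were lower and then higher, against 19.0% of those genes.

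Xbp1, the transcription factor downstream of IRE1, had another order. It stood at 14.45 on Veh-Sham and at 15.25, 15.34 and 15.32 on Veh-SA, GW-Sham and GW-SA. The vehicle sham array was thus set apart below the other 3. Overload came to 0.80 under vehicle and -0.02 under GW4869, the latter 0.44 when arrays were centred on adipocyte genes. The array does not separate spliced from unspliced Xbp1 in these values, so they carry no reading of IRE1 activity.

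Atf4, the transcription factor translated under PERK signalling, was lowest on Veh-Sham at 11.28, then 11.75 on Veh-SA, 11.98 on GW-Sham and 13.37 on GW-SA. The difference of overload from sham was 0.47 under vehicle and 1.39 under GW4869. Ddit3 encodes CHOP, a factor tied to cell death in prolonged stress, and it read 9.73, 9.22, 8.97 and 10.33 in that order of arrays. It gave -0.50 under vehicle and 1.37 under GW4869. A second Ddit3 probe set, outside the transcript clusters, read 7.12, 6.79, 7.39 and 8.33, with -0.32 and 0.94. GW4869 in sham mice was -0.76 in the Ddit3 probe set used and 0.27 in the other, so they disagreed there in sign.

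**Figure D1:**
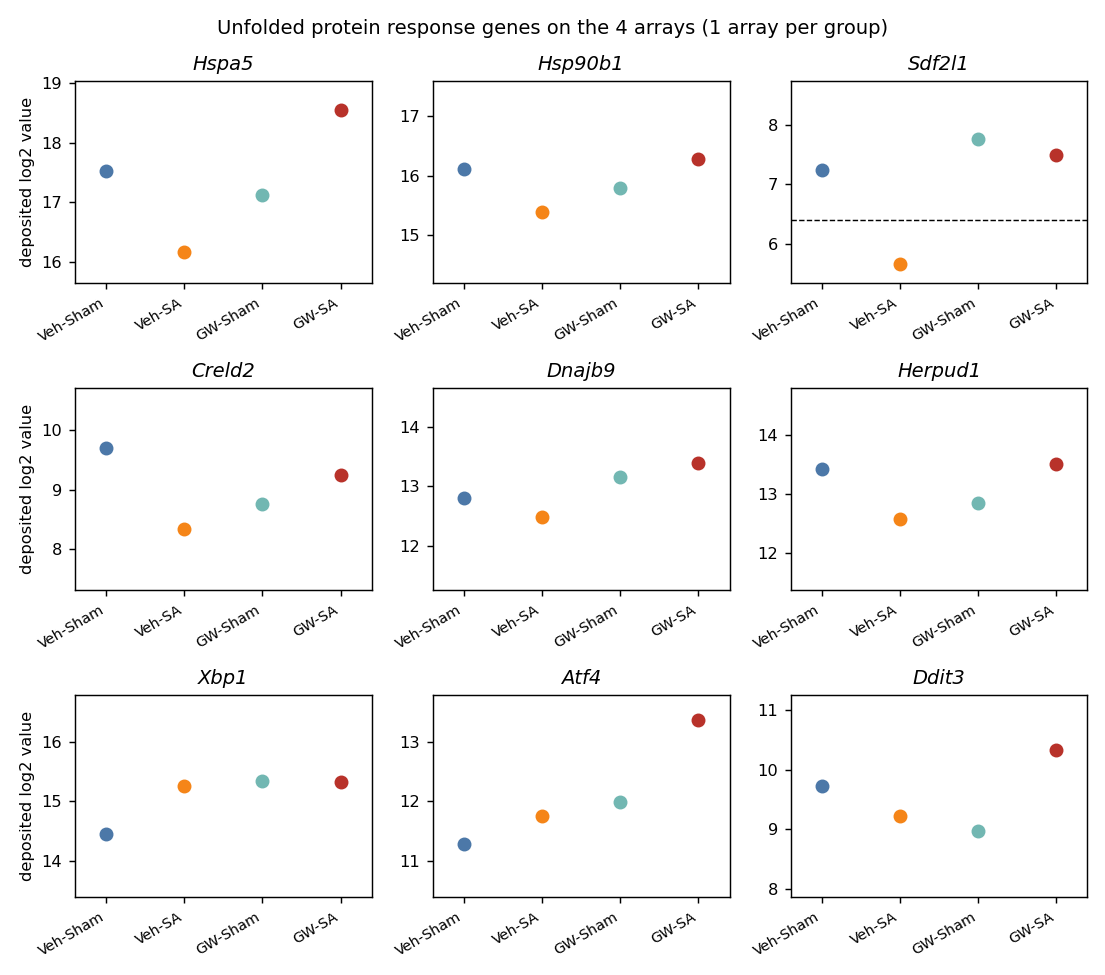
Deposited log2 value (vertical axis, each panel spanning the same number of log2 units) of each of the 9 genes on the 4 arrays, 1 point per array, without error because each group is 1 array. Hspa5, Hsp90b1, Sdf2l1, Creld2, Dnajb9 and Herpud1 are lowest on Veh-SA, Xbp1 and Atf4 on Veh-Sham, and the dashed line in the Sdf2l1 panel is the highest of the background limits, 6.40.

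Overload against sham under vehicle asks how fat differs after muscle overload, and 5 of the 9 genes were at least 1.5-fold lower there and 1 was higher. Hspa5, Hsp90b1, Sdf2l1, Creld2 and Herpud1 were lower and Xbp1 was higher. In the background, 16.9% of genes were that much lower and 30.2% that much higher. The median over the 9 genes was -0.73 and over all genes above the floor 0.26. Centring on all genes gave -0.25, with 3 lower and 2 higher, against 11.4% and 58.2% of genes above the floor. Centring on adipocyte genes gave -1.04. Hspa5, Sdf2l1 and Creld2 were at least 1.5-fold lower under all 4 scalings compared. The share of higher genes among all genes past 1.5-fold was 64.2%, or 83.6%, 38.4% and 73.8% with centring on all genes, on adipocyte genes and quantile normalization.

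Under GW4869 the same contrast asks whether the difference remains when vesicle release is inhibited, and of the 9 genes 4 stood higher by 1.5-fold or more, with 0 lower. These were Hspa5, Herpud1, Atf4 and Ddit3. The background held 13.4% of genes higher and 15.3% lower. The median was 0.50 over the 9 genes and -0.04 over all genes above the floor. Centring on adipocyte genes raised the median to 0.96 and the count to 7, and the share among genes above the floor to 37.4%. Hspa5, Atf4 and Ddit3 passed 1.5-fold under all 4 scalings. Of all genes past 1.5-fold, 46.7% were higher, or 34.9% with centring on all genes and 88.7% on adipocyte genes.

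**Figure D2:**
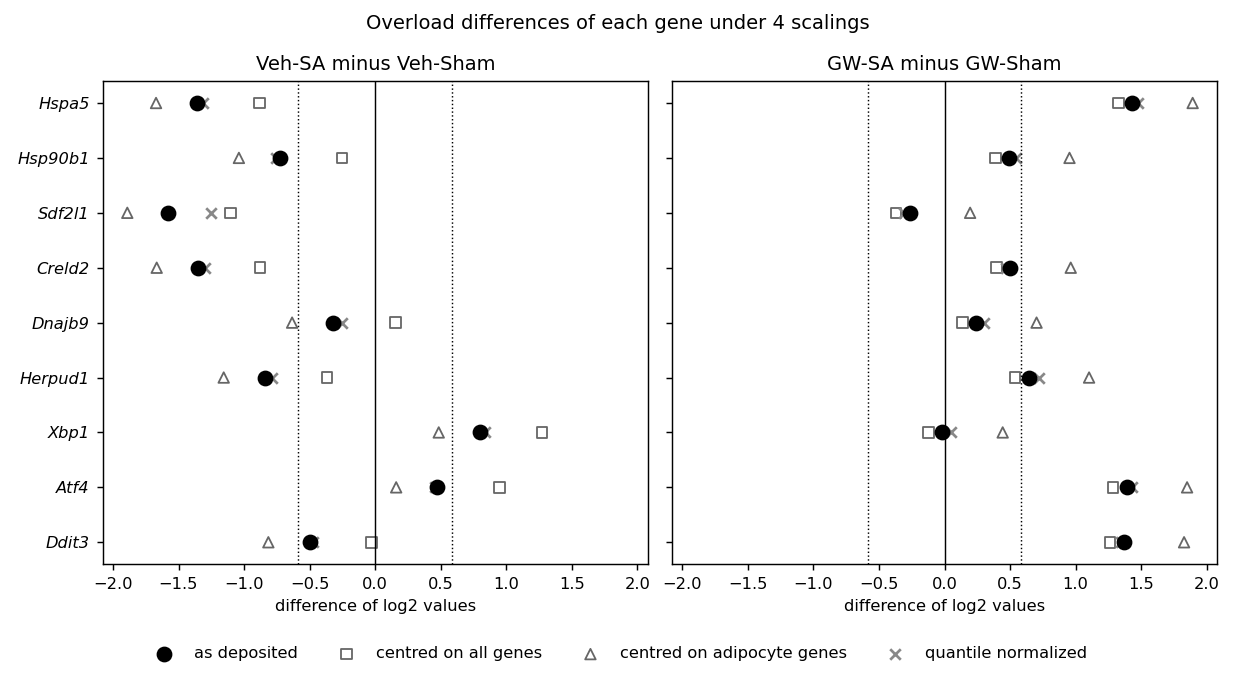
Difference of log2 values (horizontal axis) for overload against sham under vehicle (left) and GW4869 (right), for each of the 9 genes under 4 scalings, with 1.5-fold as dotted lines. As deposited, Hspa5 lies at -1.36 on the left and 1.43 on the right, and Dnajb9 on the left and Sdf2l1 and Xbp1 on the right change sign between scalings.

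GW4869 against vehicle in overloaded mice gave the largest count in a single direction, with 8 of the 9 past 1.5-fold upward and 0 downward. The sizes of these differences were not uniform. The background was 18.4% higher and 18.8% lower. Hspa5 was 2.39 higher, Sdf2l1 1.84 and Atf4 1.62, and Ddit3 was 1.11 higher. Herpud1, Dnajb9, Creld2 and Hsp90b1 lay between 0.90 and 0.93. Xbp1, at 0.07, was the exception, and it read -0.15 with arrays centred on all genes. The same 8 genes passed 1.5-fold under all 4 scalings, under which the share of genes above the floor ran from 12.7% to 40.4%. As deposited, 4 of them passed 2-fold, against 9.41% of genes above the floor. The median was 0.93, against -0.04 over all genes above the floor, and with the Sdf2l1 reading raised to the background limit that gene came to 1.14. Of all genes past 1.5-fold, 49.5% were higher, or 30.1% and 87.9% with centring on all genes and on adipocyte genes.

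GW4869 against vehicle in sham mice counted 2 of the 9 genes higher and 2 lower, not far from the shares of all genes. Xbp1 (0.89) and Atf4 (0.70) were at least 1.5-fold higher and Creld2 (-0.95) and Ddit3 (-0.76) lower, with the other 5 between. The second Ddit3 probe set was at 0.27. The background was 28.9% higher and 14.4% lower, and the medians were -0.32 over the 9 genes and 0.27 over all. With arrays centred on all genes the median was 0.045, with 4 genes higher and 0 lower, against 53.0% and 10.5% of genes above the floor. Of all genes past 1.5-fold, 66.7% were higher, or 83.4% and 42.3% with centring on all genes and on adipocyte genes. This contrast and overload under vehicle both subtract the Veh-Sham array.

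The overload difference under GW4869 minus that under vehicle, which uses all 4 arrays, was at least 1.5-fold higher for 7 of the 9 genes and lower for 1. The background was 21.5% higher and 36.3% lower. Hspa5 came to 2.79, Ddit3 to 1.87, Creld2 to 1.85 and Herpud1 to 1.48. Sdf2l1 was at 1.31, or 0.62 with the background limit, Hsp90b1 at 1.22, Atf4 at 0.91 and Dnajb9 at 0.56. Xbp1 alone was negative as deposited, at -0.82, and it was -0.04 with arrays centred on adipocyte genes. Dnajb9 turned to -0.02 with centring on all genes. The median of 1.31 compares with -0.27 over all genes above the floor, and became 0.73 and 2.09 under the centrings on all genes and on adipocyte genes. Of all genes past 1.5-fold, 37.2% were higher, or 18.5% and 80.2% under those centrings.

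A shift of a whole array cannot move the difference between genes of that array. Under vehicle, the overload difference of Hspa5 minus that of Xbp1 was -2.16, and under GW4869 it was 1.45. Against Hsp90b1, Hspa5 came to -0.63 under vehicle and 0.94 under GW4869. Atf4 minus Hspa5 was 1.83 under vehicle and -0.043 under GW4869. Hspa5 and Atf4 thus had unequal differences under vehicle and nearly equal ones under GW4869, whereas those of Hspa5 and Xbp1 were unequal under both.

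Other genes of the pathway were taken from lists chosen with earlier results of these data known. As deposited, they had overload medians nearer 0 than those of the 9, list by list. With arrays centred on all genes every vehicle difference rose by 0.47, and the median of the 9 came to -0.25. The vehicle medians of the pathway lists then lay further from 0 than that of the 9. Counts of the lists at 1.5-fold, as deposited, stand against 30.2% of genes higher and 16.9% lower under vehicle, and 13.4% and 15.3% under GW4869. Of 25 annotated chaperones and foldases of the endoplasmic reticulum, 24 lay above the floor. Under vehicle 2 of them were at least 1.5-fold higher and 6 lower in overload, with a median of -0.12. Ero1b (-3.31), an oxidase that recharges disulfide isomerases, Dnajc10 (-2.79), a reductase partner of BiP, and Calr (-1.05), the glycoprotein chaperone calreticulin, had the largest differences. Under GW4869 5 were higher and 3 lower, with a median of 0.23. Dnajc10 was 2.06 higher there, and Fkbp2 and Sil1, a nucleotide exchange factor of BiP, were at -1.03 and -0.90.

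Dnajc10 stood at 14.32 and 14.37 on Veh-Sham and GW-SA, and at 11.52 and 12.32 on Veh-SA and GW-Sham. Calr showed that grouping too, with 17.23 and 17.53 against 16.18 and 16.69. Ero1b was set apart on Veh-Sham alone, at 10.17 against 6.86 to 7.84.

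Of 18 degradation genes above the floor, 3 were higher and 3 lower in overload under vehicle (median -0.06), the lower share near that of all genes, with Ube2j1 (-1.59), a ubiquitin-conjugating enzyme of this route, Edem3 (0.85) and Ubxn4 (-0.83) furthest from 0. Under GW4869 1 was higher and 1 lower (median -0.08). Syvn1, the ubiquitin ligase HRD1, was 1.13 higher, Edem2 was at -0.79 and Nploc4 at 0.58.

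The sensors themselves were read at the transcript level. Ern1, which encodes IRE1, read 7.77, 8.12, 8.22 and 8.71 on Veh-Sham, Veh-SA, GW-Sham and GW-SA. Eif2ak3, which encodes PERK, read 9.67, 9.98, 9.98 and 10.22, and Atf6 read 10.73, 10.74, 11.18 and 11.58. These 3 were chosen for their role and after their values were seen. Each was highest on GW-SA. Atf6 was 0.84 higher there than on Veh-SA, past 1.5-fold, and no overload difference of the 3 reached 1.5-fold. In the list of sensors and CREB3 factors, 10 genes lay above the floor, with 1 higher and 1 lower under vehicle (median 0.17) and 2 higher and 1 lower under GW4869 (median 0.41). Mbtps1, a protease that cuts ATF6, was 0.63 higher under vehicle, Creb3l2 was at -0.52 and Creb3l1 at 0.50. Under GW4869 Creb3l1 was at -1.03, Rtcb, the ligase that joins spliced Xbp1, at 0.80 and Creb3 at 0.60. Creb3l4, the gene counted as lower under vehicle and named after its values were seen, stood at 11.65 on Veh-Sham and between 2.45 and 2.78 on the other arrays.

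Of 20 ATF4 and CHOP targets above the floor, 7 were higher and 3 lower under vehicle (median 0.12), shares near those of all genes, and 5 higher and 4 lower under GW4869 (median 0.11). Slc7a5, the large neutral amino acid transporter, had the widest swing, at 9.79, 5.77, 6.65 and 13.61 on Veh-Sham, Veh-SA, GW-Sham and GW-SA. That gave -4.02 under vehicle, with the overload reading within background, and 6.96 under GW4869. Slc7a11, the cystine transporter, read 9.78 on GW-SA against 4.78 on GW-Sham, the latter within background. Mthfd2, an enzyme of mitochondrial one-carbon metabolism, was 1.74 higher under GW4869. Under vehicle, Cebpb (1.37, from a sham reading within background) and Atf5 (1.33) were higher. Trib3, a CHOP target named after its values were seen, lay between 6.06 and 6.63 on all arrays, near the background limit. Chac1 and Ppp1r15a, named likewise, had means under the floor.

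The eIF2 kinases, which slow translation by phosphorylating eIF2, and the subunits of eIF2B, the exchange factor that this blocks, counted 2 higher and 0 lower of 7 under vehicle and 1 higher and 0 lower under GW4869, with medians of 0.35 and 0.02. Eif2b5 (1.21, from a sham reading within background), Eif2b3 (0.78) and Eif2b2 (0.41) had the largest differences under vehicle, and Eif2b2 (0.84), Eif2ak2 (0.52) and Eif2b3 (-0.52) under GW4869. Of 26 genes for entry into the endoplasmic reticulum and glycosylation, 0 were higher and 5 lower under vehicle, and 3 higher and 0 lower under GW4869. Their medians were -0.11 and 0.23. Spcs1 (-1.13), Ddost (-0.93) and Tram1 (-0.84) had the largest vehicle differences, and Sec11c (1.20), Srpr (0.62) and Srprb (0.59) the largest under GW4869. Traffic genes between endoplasmic reticulum and Golgi counted 4 higher and 1 lower of 20 under vehicle and 2 higher and 0 lower under GW4869, with medians of 0.08 and 0.31. Sec24d (1.04), Mcfd2 (0.87) and Sec23a (-0.81) had the largest differences under vehicle. Under GW4869 these were Tmed10 (0.64), Kdelr3 (0.59), which lay within background on all arrays, and Surf4 (0.56).

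Stress lists of other compartments were read beside the 9 genes. Mitochondrial chaperones and proteases counted 5 higher and 0 lower of 8 under vehicle (median 0.71), with Dnaja3 (1.37), Hspa9 (1.19) and Hspd1 (1.17) the largest. Under GW4869 their median was -0.03, with Hspe1 (1.29) and Hspd1 (1.22) higher and Trap1 at -0.54. The cytosolic heat shock list counted 0 higher and 6 lower of 10 under vehicle (median -0.63) and 5 higher and 0 lower under GW4869 (median 1.45), the same directions as the medians of the 9 genes. Hspa4l (-4.01), Dnajb1 (-1.98) and Hsp90aa1 (-1.42) led the first, and Hspa1b (3.76), Hspa1a (3.63) and Hspb1 (3.01) the second. Of 5 death genes, Casp12 (1.47) and Bak1 (0.83, from a sham reading within background) were higher under vehicle, Tnfrsf10b was at -0.09, and Bcl2l11 read 7.12 on GW-SA against a sham reading within background. Casp12 and Bbc3 were at -0.35 and 0.01 under GW4869.

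**Figure D3:**
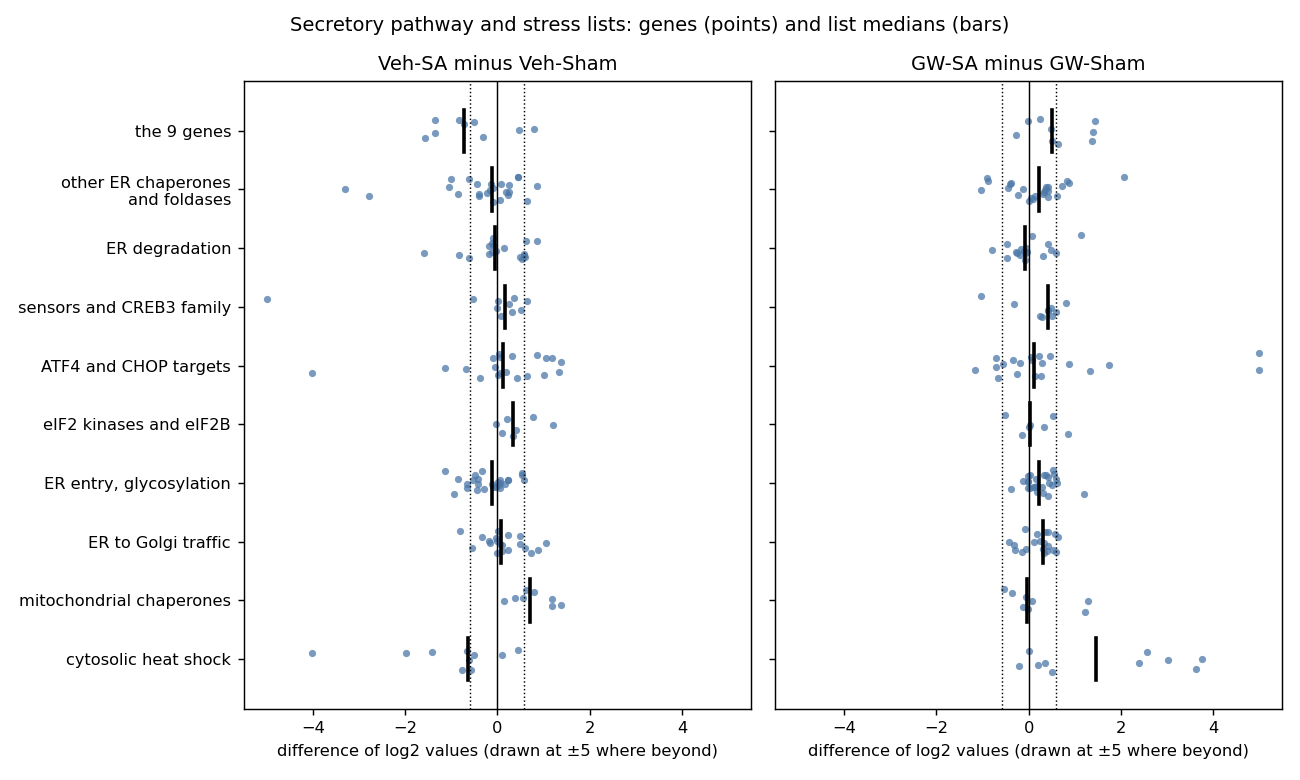
Overload differences of log2 values under vehicle (left) and GW4869 (right) for the genes above the floor in each list (points) with the list median (bars), and 1.5-fold as dotted lines. Only Creb3l4 on the left and Slc7a5 and Slc7a11 on the right reach past the drawn range of 5 log2 units, and the 9 genes have medians of -0.73 and 0.50.

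The label of the tissue was checked with adipocyte genes. All 16 annotated ones lay above the background limit on every array, with medians of 16.54, 16.86, 16.84 and 16.38 on Veh-Sham, Veh-SA, GW-Sham and GW-SA. Male tract genes were present as well, and their lists differed between arrays, each in its own pattern. Of 15 sperm and testis genes, 15 lay above the background limit on Veh-Sham, 1 on Veh-SA, 1 on GW-Sham and 4 on GW-SA, with medians of 14.04, 3.96, 3.17 and 4.42. Prm1 stood at 17.40, 5.13, 4.71 and 7.04. Of 18 annotated epididymal genes, 4 lay above it on Veh-Sham, 0 on Veh-SA, 1 on GW-Sham and 15 on GW-SA. Gpx5, their defining secreted enzyme, was at 19.53 on GW-SA and at most 4.51 elsewhere. Of 6 distal tract genes, listed after their values were seen, all lay above it on both sham arrays and 0 on both overload arrays. Hspa5, Dnajc10 and Calr, put together after their values were seen, were highest on GW-SA and Veh-Sham. Those arrays had 15 of 18 epididymal and 15 of 15 sperm genes above background, in that order. Of the 9 genes, Hsp90b1, Creld2, Herpud1 and, by the probe set used, Ddit3 also stood highest on those arrays. Sdf2l1 and Dnajb9 did not, and Xbp1 and Atf4 were instead lowest on Veh-Sham. Among the other chaperones and foldases the order was mixed. Hyou1, Pdia3 and Uggt1 shared it, whereas P4hb and Ppib read higher on GW-Sham than on Veh-Sham, and Sil1 was lowest on GW-SA. GW-Sham carried tract transcripts too, the distal genes and Spink8 of the epididymal list, at 13.16. The part of these tissues in the differences was not tested, and with 1 array a group tract RNA and treatment cannot be told apart.

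Of 6 annotated genes of testis somatic cells, 2 lay above the background limit on Veh-Sham, 0 on Veh-SA, 0 on GW-Sham and 1 on GW-SA, with Cyp17a1 at 14.49 on Veh-Sham and at most 3.81 elsewhere. The mesothelial list, whose keratins epithelia also express, had medians of 8.80, 7.21, 8.99 and 10.77 on Veh-Sham, Veh-SA, GW-Sham and GW-SA. The median of this list, like Hspa5, was lowest on Veh-SA and highest on GW-SA, but its genes were split. Their overload differences under GW4869 had a median of -0.56, with 3 genes past 1.5-fold upward and 4 downward. The keratins Krt8 (8.86, 6.76, 8.09 and 12.08) and Krt18 (9.05, 6.01, 8.04 and 11.62) had the order of Hspa5 over all 4 arrays. Krt19, another keratin of the list, was highest on GW-Sham at 10.25. Msln (6.90, 6.98, 7.59 and 6.81) and Upk3b (13.48, 12.98, 14.17 and 12.58) were lowest on GW-SA. These genes were named after their values were seen. Smooth muscle genes had medians of 12.71, 6.55, 12.41 and 8.99 on Veh-Sham, Veh-SA, GW-Sham and GW-SA, lowest on the same array as Hspa5. Plasma cells are rich in this machinery. Of 10 annotated plasma and B cell genes, 2, 2, 2 and 3 lay above the background limit in that order. Jchain read 7.62, 8.14, 9.71 and 9.93, Mzb1 lay under the floor on every array, and Sdc1, which epithelia also express, read 6.99, 7.21, 7.80 and 10.87. Macrophage medians were 8.98, 9.81, 12.32 and 12.05, and neutrophil medians 3.56, 3.53, 4.90 and 6.52, with S100a8 at 8.63 on GW-SA and within background elsewhere. Fibroblast medians were 9.99, 10.26, 11.02 and 9.74, and endothelial medians 9.60, 9.71, 9.84 and 8.97. Whether these cells contribute to the differences was not tested.

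**Figure D4:**
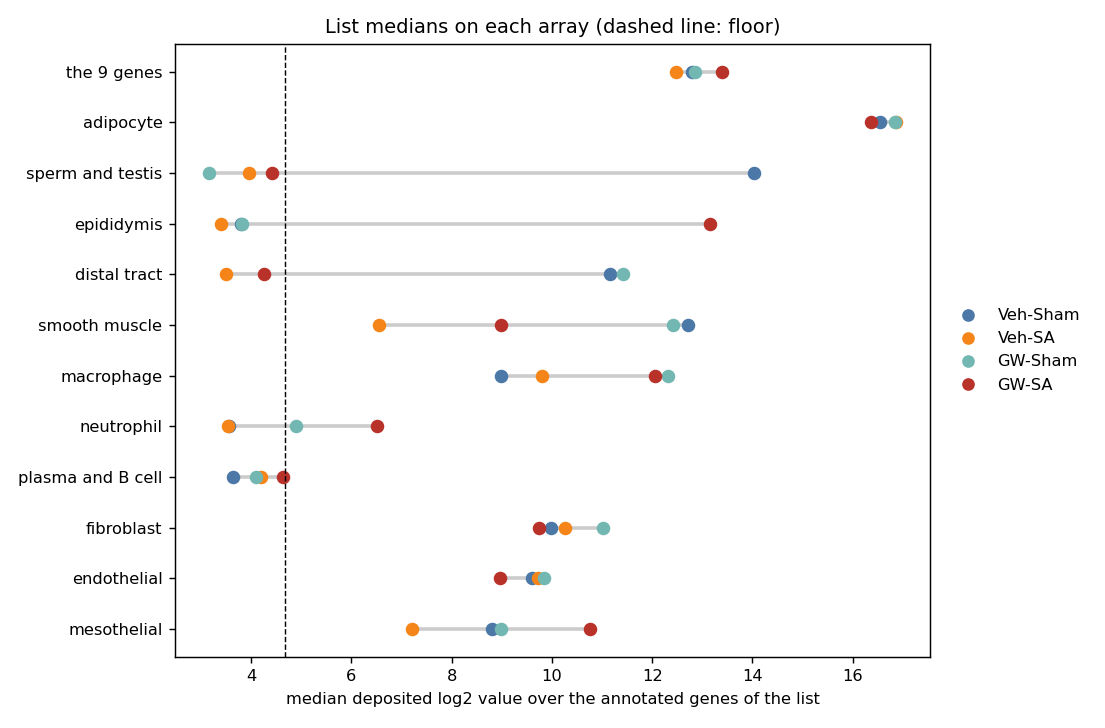
Median deposited log2 value of the 9 genes and of each cell type list (horizontal axis) on the 4 arrays, 1 coloured point per array, with the floor at 4.67 as a dashed line, to be compared between arrays within a row only. The 9 genes span 12.48 to 13.40, while the sperm list spans 3.17 to 14.04 and the epididymal list 3.39 to 13.15.

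Profiles closest to those of the response genes were ranked among 10395 genes above the floor on all 4 arrays. The measure was the root mean square distance between levels centred on each gene's own mean. The mean profile of the 9 genes, at 0.02, -0.58, -0.04 and 0.60 on Veh-Sham, Veh-SA, GW-Sham and GW-SA, was matched most closely by Cfap44 (0.03), Avl9 (0.04), Cdc5l (0.05), Rpgr (0.06) and Tox4 (0.06). That of Hspa5, at 0.18, -1.17, -0.22 and 1.21, was matched by Ip6k2 (0.08), Ildr1 (0.10), Zfp185 (0.10), Pacc1 (0.13) and Avpi1 (0.15). Ildr1, Pacc1 and Avpi1 lay within background on every array but GW-SA, and Cdc5l and Rpgr on Veh-SA. With 4 arrays and that many genes, close profiles are a description of these arrays.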

How the data were processed

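For 4 Clariom S Mouse arrays the authors deposited probe set values on the log2 scale. Per the submitters' processing notes, Partek and RMA were used, and the sources used here give neither version nor settings. Those log2 numbers span 1.16 to 19.93, above an ordinary scanner's range, and the step behind this was not identified. Of 28846 rows, 19572 probe sets carried a gene symbol in the platform annotation, and the brightest by mean was kept per gene, 19505 in all. Differences of log2 values were taken between arrays in Python 3.11.15 with pandas 2.3.3 and numpy 2.4.6, and genes at least 1.5-fold apart (0.58 log2 units) were counted. The floor was the 40th percentile of gene means, and the background limit the 95th percentile of 23 antigenomic rows. With 1 array per group no test was run, and so few arrays limit the precision. Counting was tested on simulated data.

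The genes, lists and rules were chosen with earlier results of these data known. Each of the 10 genes was named, the 3 largest differences of each pathway list per overload contrast among genes above the floor on both arrays, and the 5 nearest profiles. Motifs were matched in RefSeq promoter windows (GRCm38.p6). Alternatives were 3 other scalings, the mean of all probe sets, raising low values to the floor, the background limit as floor, 2-fold as the threshold, and a looser motif.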

Additional observations from a re-analysis of the deposited data

Results flagged for a closer look

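Hspa5 and Herpud1 drew attention because overload and sham stood in opposite order under the 2 treatments, each past 1.5-fold. With arrays centred on all genes Herpud1 came to -0.37 under vehicle and 0.54 under GW4869, under 1.5-fold both ways. The overload difference under GW4869 minus that under vehicle was 2.79 for Hspa5 and 1.48 for Herpud1. The difference between the treatments was not tested, because each rests on 4 arrays without replicates. The array with the highest Hspa5 also carried 15 of 18 epididymal genes above background.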

How the results depend on the processing

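Scaling had the widest effect, and the true scale cannot be fixed from 4 arrays. Centring arrays on all genes moved the median of the 9 genes from -0.73 to -0.25 for overload under vehicle, with 2 higher and 3 lower, from -0.32 to 0.045 for GW4869 in sham, with 4 higher and 0 lower, and from 1.31 to 0.73 for the difference between the overload differences. That centring shifted the median of all genes by 0.47 for overload under vehicle. Of genes above the floor, 58.2% were then higher and 11.4% lower for overload under vehicle, and 53.0% and 10.5% for GW4869 in sham. Centring on adipocyte genes gave medians of -1.04 for overload under vehicle (0 higher), 0.96 for overload under GW4869 (7 higher), -0.61 for GW4869 in sham (1 higher, 5 lower), 1.41 for GW4869 in overload and 2.09 for the difference between the overload differences (0 lower). Of genes above the floor, 15.2% were then higher for overload under vehicle and 37.4% for overload under GW4869. For GW4869 in sham 15.3% were higher and 20.9% lower, and for the difference between the overload differences 11.5% were lower. At 2-fold, overload under vehicle had 0 higher and 3 lower, against 11.9% and 11.9% of genes. GW4869 in sham had 0 and 0, against 11.9% and 10.1%. GW4869 in overload had 4 higher, against 9.41%, and the difference between overload differences 0 lower, against 21.1%. Averaging probe sets left 1 gene lower for GW4869 in sham, against 14.4% of genes above the floor. Allowing 1 mismatch took the promoters with the stress element from 3 to 6.

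The other 22 medians and 34 counts stayed within 0.29 log2 units or 1.5 times. Among differences of single genes, 79 moved by more than that and 191 did not. Of those moved, 45 were under centring on adipocyte genes and 27 under centring on all genes. No difference past 1.5-fold of any of the 9 genes changed sign under any alternative run. Leaving out an array leaves no contrast. Depth does not apply to arrays, and Sdf2l1 on Veh-SA was within background.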
